A study of Mus musculus with 6 samples.

Results

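Histone marks were read at 8 helper cytokine genes, Il4, Il13, Il5, Il2, Il21, Il17a, Il17f and Ifng, in mature T cells of the mouse thymus, and at Rad50, the neighbour that lies between Il13 and Il5. The genes were chosen by name, as 8 of the 21900 protein-coding genes of the RefSeq table, and reads were counted in 5 windows of mouse build mm9 that hold them. Mature CD4+ T cells and mature CD8+ T cells from thymi of C57BL/6 mice were compared. For each of them chromatin cut to mononucleosomes with micrococcal nuclease was sequenced as input, after precipitation of H3K4me3 and after precipitation of H3K36me3. Each of the 6 groups holds 1 library, so no difference has a replicate check and no p-value is given. The number of animals or pools behind a library is not given in the sources used here.

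Helper T cells are told apart by the cytokines they make after activation. Il4, Il13 and Il5 are the cytokines of type 2 helper cells, which act on B cells, mucosal surfaces and eosinophils. Il17a and Il17f recruit neutrophils to barrier tissues, Ifng activates macrophages and is made by type 1 helper and by cytotoxic cells, Il2 is a T cell growth factor and Il21 helps B cells. These genes are known to be silent or nearly silent in T cells that have not met antigen. H3K4me3 is a histone mark of active promoters and H3K36me3 is laid down over transcribed gene bodies, so an active gene such as Rad50, which codes for a DNA break repair protein, carries both.

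The start regions of all 8 genes were found in the RefSeq promoter table. The 250 bases before the start are printed here for 4 of them, as examples of the read patterns described further on. For Il4, which has 2 starts in the table, the one farthest upstream was used. Il4 had a run of H3K4me3 reads in CD4 cells, and Il13 a small group of reads in CD8 cells. Ifng had neighbouring groups in both cell types, and Il2 had few CD4 reads, at most 9 in a window of 2 kb. The positions of these sequences are in build GRCm38.p6 and cannot be compared with the mm9 positions of the reads. Capitals mark each CG and each TATAAA box, searched on both strands, and each sequence runs 5′ to 3′ on the strand of its gene.
Il4, GRCm38.p6 chr11:53618666-53618915, minus strand: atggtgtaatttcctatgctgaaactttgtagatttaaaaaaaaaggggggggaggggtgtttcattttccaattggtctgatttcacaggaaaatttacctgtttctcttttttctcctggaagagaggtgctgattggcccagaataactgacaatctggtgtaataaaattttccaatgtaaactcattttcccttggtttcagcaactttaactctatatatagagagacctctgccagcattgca
Il13, GRCm38.p6 chr11:53634703-53634952, minus strand: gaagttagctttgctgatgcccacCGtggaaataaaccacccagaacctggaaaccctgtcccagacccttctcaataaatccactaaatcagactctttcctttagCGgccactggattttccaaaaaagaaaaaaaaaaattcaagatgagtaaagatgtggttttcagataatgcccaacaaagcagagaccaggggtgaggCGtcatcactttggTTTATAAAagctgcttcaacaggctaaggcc
Ifng, GRCm38.p6 chr10:118440796-118441045, plus strand: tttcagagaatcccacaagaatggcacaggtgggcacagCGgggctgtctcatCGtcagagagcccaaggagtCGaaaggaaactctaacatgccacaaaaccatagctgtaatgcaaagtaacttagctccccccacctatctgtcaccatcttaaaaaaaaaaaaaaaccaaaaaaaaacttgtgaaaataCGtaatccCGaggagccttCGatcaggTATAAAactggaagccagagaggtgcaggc
Il2, GRCm38.p6 chr3:37125955-37126204, minus strand: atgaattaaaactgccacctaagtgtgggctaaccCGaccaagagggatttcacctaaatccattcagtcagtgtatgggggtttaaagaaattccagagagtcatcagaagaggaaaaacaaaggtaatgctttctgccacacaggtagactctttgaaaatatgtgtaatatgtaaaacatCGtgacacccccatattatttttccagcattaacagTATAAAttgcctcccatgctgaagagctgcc

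None of the 8 start regions held more CG than the median start region of the table. The number of CG in 250 bases was 0 for Il4, 2 for Il5 and Il2, 3 for Il13, 4 for Il17a and Il17f, 5 for Il21 and 6 for Ifng, a median of 3.5. Over 32536 start regions of the table the median was 6, and 53.4% had 6 or fewer. The letters TATAAA stood in 5 of the 8, in Il13, Il2, Il17a, Il17f and Ifng, against 12.3% of all start regions. The 5 boxes began between 29 and 31 bases before the start. A match of letters is a description and not a binding site.

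Depth and labels were checked first. The libraries held between 6844546 and 12136610 reads of 33 bp. The background of a library is its level far from any enriched region, as a percentage of input. For H3K4me3 it was 19.2% in CD4 and 1.20% in CD8, and for H3K36me3 31.7% and 32.5%. A gene without H3K4me3 therefore gives more reads in the CD4 library than in the CD8 library, and each H3K4me3 value is set beside this background. The cell labels were checked at lineage loci placed from background knowledge of mm9. At Cd4, 2108 CD4 and 23 CD8 reads of H3K4me3 were counted, 5873 and 66 at Zbtb7b, a factor of the helper lineage, and 597 and 8698 at Cd8a and Cd8b1. The genes of the CD3 receptor chains had 9360 and 6097, and CD4 was 2.29-fold higher there after centring (2.22 to 2.37). Set against background, the CD4 and CD8 levels were 85.5 and 15.6 times at Cd4 and 447 and 98.3 at Zbtb7b. They were 11.2 and 3121.5 times at Cd8a and Cd8b1, and 213 and 1953 at the CD3 genes. The loci of the other lineage were thus above background in both libraries. Markers of other blood cells were not analysed here.

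No annotation of mm9 was used, so each gene is represented by a stretch of 5 kb tiles placed from background knowledge of its position. The order of the genes on chromosome 11, Kif3a, Il4, Il13, Rad50, Il5 and Irf1, was taken from RefSeq. Input reads averaged 3.2 to 5.2 per kb over the stretches of the 8 genes. Some parts could not be read: the first 5 kb of the Ifng stretch, from chr10:117860001, had 5 CD4 and 0 CD8 input reads, and the 2 kb from chr3:37114001 in the Il21 stretch had 0 and 1.

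H3K4me3 was low at the cytokine genes, with a local exception at Il4 in CD4 cells. The level over input, that is reads scaled by library size (RPM) divided by the RPM of the matching input, had a median of 0.363 over the 8 genes in CD4 and 0.0125 in CD8. Over 160530 windows of 15 kb in the genome the medians were 0.211 and 0.0118. With all reads counted, Il4 alone had more H3K4me3 than input, in CD4. In the other 7 genes in CD4 and all 8 in CD8 the level was below the input, and the 95% interval held 1 only for Il13 in CD4. With 1 read kept per position Il13 was above the input too, at 1.20 times in CD4, and reached 0.941 times in CD8.

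**Figure D1:**
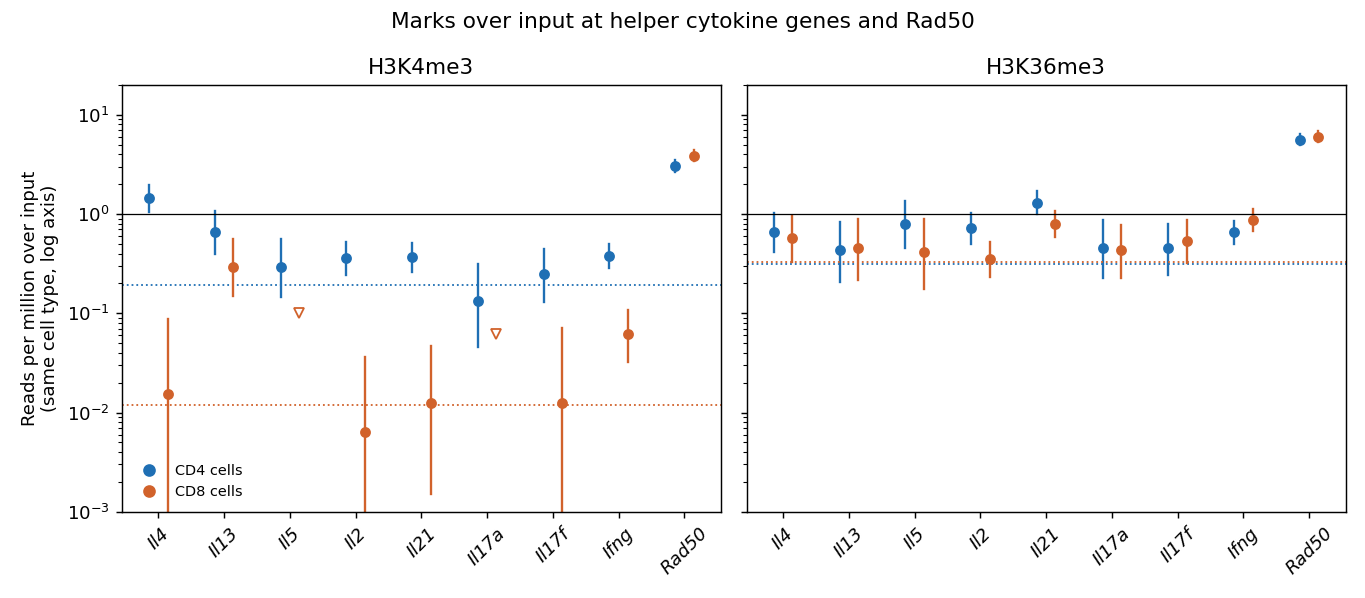
Level of H3K4me3 (left) and H3K36me3 (right) relative to the matching input, on a log axis, for the stretch of each gene in CD4 (blue) and CD8 (orange) cells. Points are single libraries, bars are exact 95% intervals of counting error, some running below the axis, open triangles are upper bounds where no read was seen, dotted lines are the level away from enriched regions, and the black line is the input level. Il4 in CD4 lies at 1.44 while Rad50 lies at 3.05 or higher for both marks.

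A window of 2 kb was called enriched for H3K4me3 when it held at least 20 reads and 4 times the input RPM. Outside the Rad50 stretch, 3 of the 134 windows of 2 kb were enriched in CD4 and 0 in CD8, against 1.86% and 1.7% of all windows of the genome. One of the 3 lay at Il4, at chr11:53430001-53432000. The other two lay next to each other at the low end of the chromosome 11 window, on the side of Kif3a. The 3 windows make up 2.24% of the 134, a share near the genome's own. The Il4 window was lost at 8-fold over the input, and on a grid shifted by 1 kb, where the best Il4 window, chr11:53429001-53431000, held 60 reads at 3.56 times the input. With 1 read kept per position it was enriched at 8.47 times the input, and so was its neighbour chr11:53428001-53430000 at 4.34 times.

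Il4, the cytokine that drives type 2 helper cells and antibody class switching, had 108 H3K4me3 reads in CD4 and 1 in CD8 over chr11:53420001-53435000, beside 71 and 54 input reads. Most of the CD4 reads stood together in chr11:53428001-53432000, where 91 CD4 reads, 0 CD8 reads and 25 and 9 input reads were counted. The 4 bins of 1 kb in that run held 15, 27, 33 and 16 CD4 reads, and no other bin of the stretch held more than 3. The run was chosen after its values were seen. Its 91 reads lay at 86 distinct positions, so it is not a pile of copies of a few fragments.

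The level of H3K4me3 over the whole Il4 stretch in CD4 was 1.44 times the input (95% interval 1.06 to 1.97) and 7.53 times what the background predicted. In the run of 4 kb it was 3.45 times the input (2.20 to 5.61) and 18.0 times the background. In CD8 the single read was near the 0.788 reads that background predicts. The CD4 reads of the stretch were 161-fold those of CD8 after centring (28.3 to 6429.7), a value that rests on the single CD8 read. It was 46.8-fold with background subtracted, where no CD8 read was left and CD8 was set to 3 reads. With the stretch widened by 5 kb it was 42.1-fold, and CD4 was called higher in both. In the window chr11:53430001-53432000, with 49 and 0 reads, CD4 was at least 19.1-fold higher by the lower 95% bound, and 24.4-fold higher when CD8 is set to 3 reads. Background alone also predicts more CD4 than CD8 reads in this window, 1.82 against 0.0584. Ratios of reads without subtraction therefore include the difference between the backgrounds of the libraries, and do not measure the mark alone. Of all windows enriched in CD4 or CD8, 30.1% differed at least 2-fold in one direction or the other with an interval that excludes 1.

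The mark at Il4 was weak beside that of active genes. Enriched windows of CD4 cells held a median of 213 reads and 31.8 times the input, against 49 reads and 5.16 times the input for the Il4 window. A domain is a run of 200 bp bins at 4 times the input, and the highest such bin at Il4 reached 3.79 times, with 12 reads. With 1 read kept per position a domain of 0.6 kb and 22 reads was found there, at chr11:53430201-53430800. A weak mark in every cell and a strong mark in few cells cannot be told apart in these bulk libraries. Of 2678 windows of 2 kb with 40 to 60 CD4 reads, the median CD8 count was 33 and 43 windows, or 1.61%, had none. The start region of Il4 printed above, with no CG, has the fewest CG of the 8, and a link to the mark was not tested.

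**Figure D2:**
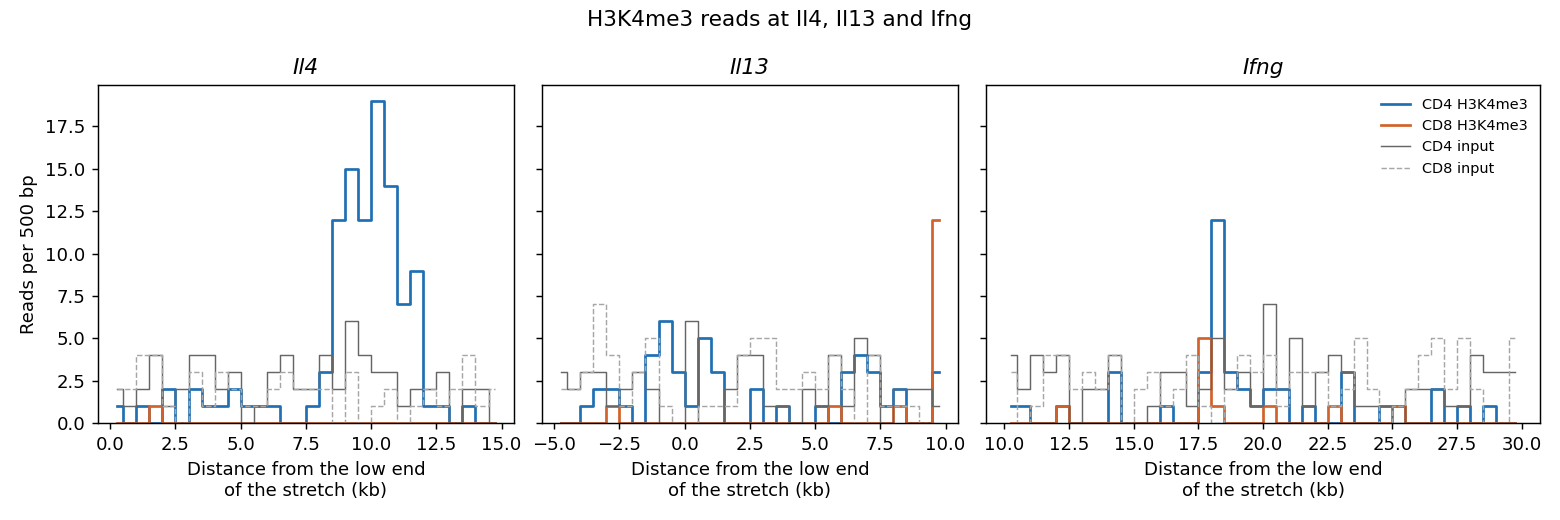
H3K4me3 reads per 500 bp in CD4 (blue) and CD8 (orange) cells with both inputs (grey) at Il4, from 5 kb below the Il13 stretch through that stretch, and in the middle of the Ifng window, against the distance from the low end of each stretch in kb. The CD4 reads of Il4 form a single hump of 4 kb where CD8 has 0 reads, while no bin of 500 bp at Il13 or Ifng holds more than 12 reads.

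Il13, which drives mucus production, had 29 CD4 and 14 CD8 H3K4me3 reads over chr11:53440001-53450000, beside 42 and 39 input reads. In CD8, 12 of the 14 reads fell in a single bin, chr11:53449001-53450000, at the high end of the stretch, where CD4 had 3 reads. Within the stretch no bin of 1 kb held more than 7 CD4 reads. Just below the stretch, the window chr11:53438001-53440000 held 13 CD4 reads, at 2.47 times the input, and 0 CD8 reads. These CD4 reads continued into the stretch, whose border was placed from background knowledge. The bins of 1 kb over chr11:53438001-53442000 held 4, 9, 6 and 3 CD4 reads and 0 CD8 reads. The CD8 window chr11:53448001-53450000 held 13 reads, which is under the 20 needed for a call, at 3.57 times the input. The CD8 level over the stretch was 24.6 times the background and the CD4 level 3.42 times. After centring, CD4 was 3.09-fold higher over the stretch (1.58 to 6.34) and was called higher. That call was lost when total reads set the scale (log2 ratio 1.23 against 1.63), with 1 read kept per position (1.13) and with background subtracted (1.27), so no direction is given for Il13.

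Il5, the growth factor of eosinophils on the other side of Rad50, had 13 CD4 and 0 CD8 H3K4me3 reads over chr11:53530001-53540000. Background predicted 8.49 and 0.467, and the CD8 level was at most 0.101 times the input (upper 95% bound). No bin of 1 kb held more than 3 CD4 reads. Il5 thus had no local rise of the kind seen at Il4, although both lie within the same 160 kb window.

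Il2, the T cell growth factor, had 38 CD4 reads and 1 CD8 read of H3K4me3 over chr3:37005001-37030000, with 100 and 130 input reads. The CD4 level was 1.88 times the background (0.360 times the input) and the CD8 level 0.527 times. The highest CD4 window of 2 kb, chr3:37024001-37026000, held 9 reads beside 4 input reads, 2.13 times the input and 11.1 times the background, and 0 CD8 reads. Il21 had 51 and 2 reads over chr3:37110001-37140000, 1.91 and 1.05 times the background, and its highest CD4 window also held 9 reads, at 0.569 times the input. Neither gene had a window enriched for H3K4me3 in either cell type.

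Il17a and Il17f had the lowest CD4 levels of the 8 relative to background. Il17a had 6 CD4 and 0 CD8 H3K4me3 reads over chr1:20715001-20725000, where background predicted 8.69 and 0.744. Il17f had 15 and 1 over chr1:20765001-20780000, where it predicted 11.5 and 0.963. Over the whole window of 80 kb that holds both, 87 CD4 and 3 CD8 reads were counted, 1.24 and 0.553 times the background. No bin of 1 kb in either stretch held more than 2 CD4 reads.

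Ifng, the macrophage-activating cytokine, had 76 CD4 and 13 CD8 H3K4me3 reads over chr10:117860001-117900000, 1.99 and 5.18 times the background. The highest bins of 1 kb of both cell types were neighbours: 15 CD4 reads at chr10:117878001-117879000 and 5 CD8 reads at chr10:117877001-117878000. The CD4 bin had 7 input reads and the CD8 bin 5, and neither cell type reached 20 reads in a window of 2 kb. The highest CD4 window held 18 reads, 1.55 times the input and 8.10 times the background. The pair of bins gives counts too low to set CD4 against CD8.

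H3K4me3 was then compared between CD4 and CD8 over whole stretches. With at least 20 reads in all, a fold of at least 2 and an interval, wider than the 95% one, that excludes 1, CD4 was called higher in the 5 genes that could be tested, Il4, Il13, Il2, Il21 and Ifng. The call at Il13 was lost under the settings named above, and with background subtracted Il2 had too few reads left to be tested. The same rule called CD4 higher in 69.5% and CD8 higher in 0.596% of all windows of 15 kb with at least 20 reads, so a call at this width says little about a gene. Set against the background, the CD4 and CD8 levels were 7.53 and 1.27 times at Il4, 1.88 and 0.527 at Il2, 1.91 and 1.05 at Il21, 3.42 and 24.6 at Il13 and 1.99 and 5.18 at Ifng. At Il13 and Ifng this order is the opposite of that of the read ratio, so no direction is given for either gene. The CD8 side of these values rests on 14 reads or fewer.

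**Figure D3:**
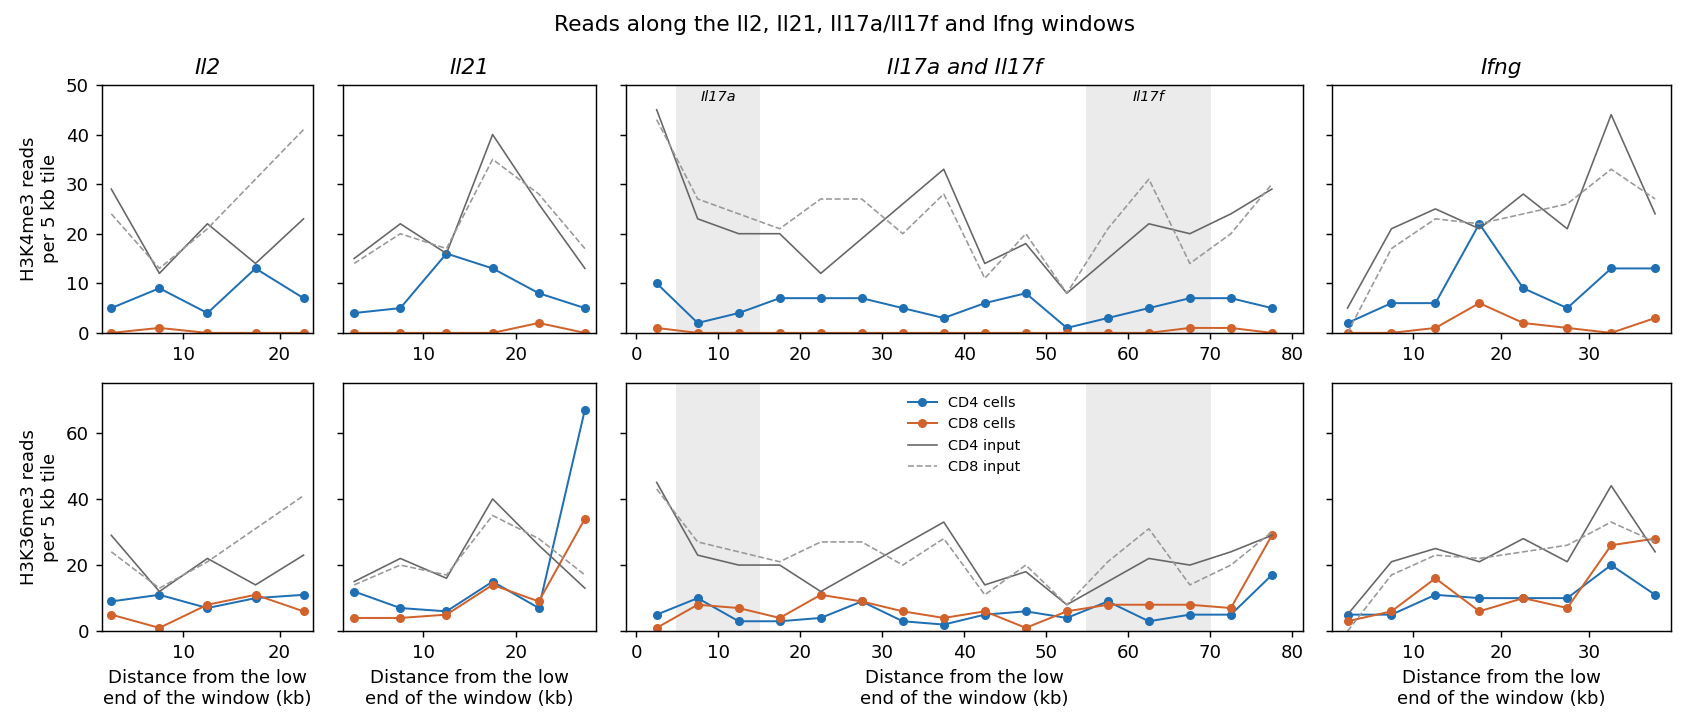
H3K4me3 reads (top) and H3K36me3 reads (bottom) per 5 kb tile along the windows of Il2, Il21, Il17a with Il17f (shaded) and Ifng, against the distance from the low end of each window in kb, for CD4 (blue), CD8 (orange) and the inputs (grey). Counts are not scaled by library size. H3K4me3 counts stay at or below the input except for 22 CD4 reads at Ifng beside 21 input reads, a tile at 0.993 times the input by RPM. H3K36me3 is highest in the last tile of Il21, with 67 reads in CD4 and 34 in CD8.

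H3K36me3 was low over most of the cytokine genes. Over the 8 stretches its median level relative to input was 0.658 in CD4 and 0.496 in CD8, where the medians of all 15 kb windows were 0.388 and 0.398. A window of 10 kb was called enriched at 20 reads and 2 times the input. Outside Rad50, 1 of 26 such windows was enriched in each cell type, against 10.7% of all windows in CD4 and 10.7% in CD8. The CD4 window was chr3:37130001-37140000, at the high edge of the Il21 window, with 74 reads at 2.87 times the input. The CD8 window was chr11:53410001-53420000, between the Kif3a side and the Il4 stretch, with 40 reads at 2.04 times the input, and CD4 had 55 reads at 1.93 times the input there. Both calls were lost at 3-fold over the input and on a shifted grid, and the CD8 call also with both inputs pooled.

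At Il4 the H3K36me3 reads numbered 31 in CD4 and 21 in CD8, 2.08 and 1.76 times the background. The run of 4 kb that carried H3K4me3 in CD4 had 4 H3K36me3 reads in each cell type. Il13 had 12 and 12 reads (1.36 and 1.40 times the background) and Il5 had 22 and 9 (2.50 and 1.28 times). The H3K36me3 level of Il4 in CD4 was 0.660 times the input (0.418 to 1.02).

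Il17a had 13 CD4 and 15 CD8 H3K36me3 reads and Il17f had 17 and 24, between 1.33 and 1.65 times the background. Ifng had 82 and 102, or 2.07 and 2.69 times. At its high edge, the 5 kb tiles from chr10:117890001 and chr10:117895001 held 26 and 28 of the CD8 reads, at 1.16 and 1.53 times the input. CD4 had 20 and 11 reads there, at 0.687 and 0.693 times. Il2 had 48 and 31, or 2.29 and 1.08 times. No gene was called different between CD4 and CD8 for H3K36me3. The rule called CD4 higher in 0.765% and CD8 higher in 0.217% of all 15 kb windows. The call uses an interval wider than the 95% one. The 95% interval of the log2 ratio lay above 0 at Il5 (1.33, from 0.16 to 2.64) and Il21 (0.75, from 0.31 to 1.20), and at Il2 it was -0.01 to 1.38 around 0.67. With background subtracted, CD4 was called higher at Il2 (3.80) and Il21 (1.11). The Il2 value rests on very few CD8 reads, since background predicts 28.7 of the 31. The shares of all 15 kb windows given above are for the rule without this subtraction.

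Il21 had the highest H3K36me3 level of the 8 in CD4, 1.31 times the input (1.01 to 1.69) from 114 reads. In CD8 it had 0.789 times the input (0.581 to 1.06) from 70 reads, below Ifng at 0.875 times. The excess sat at the high edge of the window. The last 5 kb held 67 CD4 and 34 CD8 reads, 58.8% and 48.6% of all, at 7.79 and 2.95 times the input. Without these 5 kb, a choice made after seeing the data, the levels were 0.597 and 0.466 times the input, close to those of the other cytokine genes. The next gene on that side is Cetn4, and whether the edge belongs to it was not tested.

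Rad50 showed what an active gene looks like in the same libraries. Its H3K4me3 domain lay at chr11:53520001-53521400, 1.4 kb wide in CD4, with 835 CD4 and 1309 CD8 reads and 3 and 8 input reads. In CD8 the domain was 1 kb wide, but with 1 read kept per position it was 1.4 kb wide in both cell types. The window chr11:53520001-53522000 was 159-fold over the input in CD4 and 98.0-fold in CD8, and its log2 ratio of CD4 to CD8 was -0.06 (-0.19 to 0.06). The reads of the wider domain lay at 308 distinct positions in CD4 and 331 in CD8.

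H3K36me3 filled the body of Rad50 and stopped at both ends. The 12 tiles of 5 kb below the domain held between 43 and 135 CD4 reads and between 53 and 146 CD8 reads, with median levels of 6.12 and 6.46 times the input. The tile that holds the H3K4me3 domain had 9 reads in each cell type. On the Il13 side the count rose from 8 reads in both cell types to 103 in CD4 and 77 in CD8 from one tile to the next. Over the whole stretch 1063 CD4 and 1144 CD8 reads gave a log2 ratio of -0.06 (-0.18 to 0.06). The 19 tiles outside Rad50 held 3 to 38 CD4 and 1 to 20 CD8 reads, at medians of 0.687 and 0.608 times the input.

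**Figure D4:**
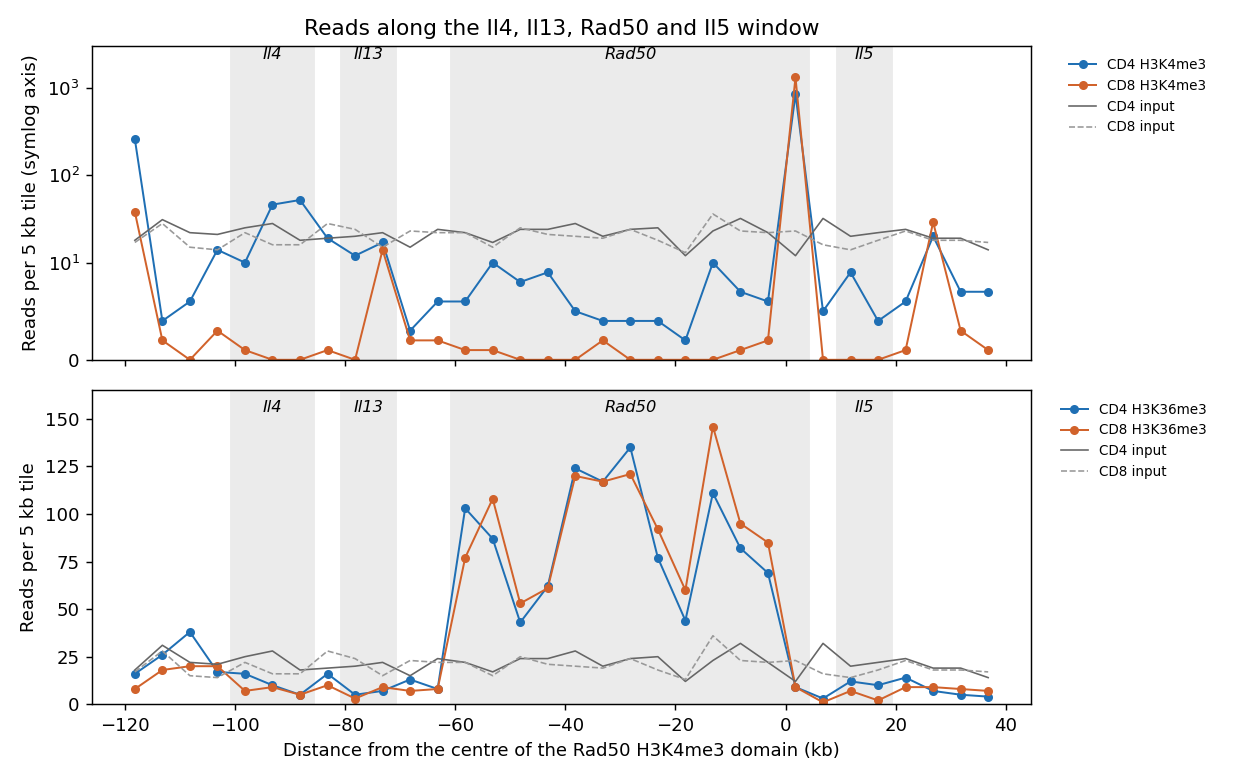
H3K4me3 reads (top, an axis that is linear up to 10 and logarithmic above) and H3K36me3 reads (bottom, linear) per 5 kb tile along the chromosome 11 window, against the distance in kb from the centre of the Rad50 H3K4me3 domain. Shaded parts are the stretches of Il4, Il13, Rad50 and Il5, blue is CD4, orange CD8 and grey the inputs. H3K36me3 is high over Rad50 in both cell types, with up to 146 reads per tile, and falls to 9 at the domain. In the 2 higher tiles of Il4 the CD4 H3K4me3 reads, 46 and 52, stand above the 28 and 18 input reads, and CD8 has 0.

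The remaining domain of the 5 windows lay 117 kb below the centre of the Rad50 domain, on the Kif3a side of Il4. It spanned chr11:53403801-53404200 in CD4, 0.4 kb, with 246 CD4 and 33 CD8 H3K4me3 reads, and the matching CD8 domain was 0.2 kb wide. CD4 reads were 11.1-fold higher (7.72 to 16.5). With 1 read kept per position, the 90 and 27 reads there gave 3.53-fold (2.27 to 5.65), and the CD8 domain, at 0.6 kb, was wider than the CD4 one. H3K36me3 there was 1 read in CD4 and 0 in CD8. It lies outside the Il4 stretch and is not counted with any cytokine gene. At the other end of the window, the 5 kb tile from chr11:53545001 held 20 CD4 and 29 CD8 H3K4me3 reads. This tile too lies outside the stretch of Il5, and no domain was found there. Within it, chr11:53548001-53550000 held 19 CD4 reads (3.60-fold over input) and 28 CD8 reads (3.29-fold), short of a call. When 1 read was kept per position, CD8 was called enriched in this 2 kb window, from 22 reads and 8.03-fold over input, and CD4 was not.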

How the data were processed

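The deposited files hold the start and end of each aligned read, with no strand or score. Build mm9 is given per the submitters' processing notes, and antibodies and nuclease per the labels' protocols. No source used here names the aligner or says how reads with several matches, or copies, were treated. Only the autosomes, X and Y were used (98.3% to 99.8% of reads), and reads were counted by midpoint. Distinct positions made up 54.4% (CD4) and 31.4% (CD8) of the H3K4me3 reads and at least 91.2% of the others.

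Inputs under 3 reads in a window or bin were raised to 3. Background windows lay at least 10 kb from any 2 kb window in which a mark had more than 9 reads. CD4 to CD8 ratios were centred on the median of windows enriched in both cell types, which moves H3K4me3 log2 ratios by 0.40 from total-read scaling. Intervals are exact (Clopper-Pearson, conditional on the sum), at 95% unless stated, and cover counting error only; the reads carry no molecular identifiers, so they are not independent molecules. Domains were joined over gaps of up to 400 bp and needed 20 reads. On simulated counts over 24614 H3K4me3 windows the difference rule recovered 98.0% of windows changed 2.5-fold, and over 30253 H3K36me3 windows 95.0%. The simulated windows had the read numbers of enriched windows, mostly above those of the cytokine stretches. These shares therefore do not apply to the cytokine genes, where a change of that size can be missed.

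The members, lists and rules were chosen with earlier results of these data known. The text names all 8 genes, Rad50, every domain and the highest window of a gene. The list of helper pathway genes fixed for the study needs mm9 positions and was not applied. Alternatives were 1 read per position, stricter folds, pooled inputs, at least 10 reads, shifted grids, wider stretches, total-read scaling and background subtraction. Computations used SciPy 1.17.1, NumPy 2.4.6, pandas 2.3.3 and matplotlib 3.10.9 under Python 3.11.15.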

Additional observations from a re-analysis of the deposited data

Results flagged for a closer look

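H3K4me3 at Il4 lay on opposite sides of the input in the 2 cell types. It was 1.44 times the input in CD4 (95% interval 1.06 to 1.97) and 0.0153 times in CD8 (0.000379 to 0.0887). With 1 library of each kind, the difference was not tested against variation between samples. The background of the libraries, 19.2% of the input in CD4 and 1.20% in CD8, differs in the same direction, and the Il4 level was 7.53 times that background in CD4 and 1.27 times in CD8.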

How the results depend on the processing

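No paired analysis was possible because each group has 1 library and the labels give no replicate numbers. Of 209 values under other settings 175 kept their call, stayed inside their interval or, for counts, stayed close to the main count. A change from 3 to 4 enriched windows was taken as close. Intervals that rest on 0 or 1 read are wide, so staying inside them says little. Enriched H3K4me3 windows in CD4 (3) numbered 1 at 8-fold over input and 1 on a shifted grid, and in CD8 (0) they numbered 2 with 1 read per position and 1 on the shifted grid. Enriched H3K36me3 windows (1 in each cell type) numbered 2 in CD4 with 1 read per position and 2 with pooled inputs, and 0 in CD4 at 3-fold and 0 on the shifted grid. In CD8 they numbered 0 at 3-fold, 0 with pooled inputs and 0 on the shifted grid. CD8 domains (2) numbered 1 at 8-fold.

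With 1 read per position, which shrinks the H3K4me3 libraries more than the inputs, H3K4me3 over input in CD4 was 2.49 at Il4, 1.20 at Il13, 0.664 at Il2, 0.670 at Il21, 0.679 at Ifng and 2.33 at Rad50. In CD8 it was 0.941 at Il13, 0.183 at Ifng and 3.12 at Rad50. Widening by 5 kb gave 2.58 for H3K4me3 and 4.76 for H3K36me3 at Rad50 in CD4. Without the last 5 kb, H3K36me3 at Il21 was 0.597 in CD4 and 0.466 in CD8.

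The H3K4me3 log2 ratio of Il13 was no longer called with total reads (1.23), 1 read per position (1.13) or background subtracted (1.27), and that of Il2 had too few reads for a test with background subtracted (3.16). Widening brought Il5 (5.16), Il17a (5.10) and Il17f (4.10) to a call by adding reads. Background subtraction brought H3K36me3 to a call at Il2 (3.80) and Il21 (1.11), from few reads. Where the construction does not show it, the cause was not tested. The CD8 H3K4me3 values rest on 0 to 14 reads per cytokine gene, in the library with the most reads of the 6 and a background of 1.20% of the input, so counting error limits them.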
